A study of Mus musculus with 6 samples.

Results

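Integrin genes outside the platelet pair Itga2b and Itgb3 were examined in mouse fetal liver: 10 chains of erythroid, myeloid and stromal cells, chosen by gene name out of 26014 genes in the deposited table. They were the alpha chains Itga2, Itga4, Itga5, Itga6, Itga9, Itgal and Itgav and the beta chains Itgb1, Itgb2 and Itgb7. The 3 KO libraries came from embryos that lack the 3′ UTR of Gata1 (the untranslated stretch behind the coding sequence) per the labels, and the 3 WT libraries from wild-type embryos. All were fetal livers at embryonic day 14.5, untreated, with no further allele given. The stated purpose of the study was to find genes regulated during fetal erythropoiesis. Neither the extent of the deletion nor the strain was given by the labels.

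Integrins are receptors made of 1 alpha and 1 beta chain that tie a cell to matrix proteins or to ligands on other cells. Itgb1 is the shared partner of many alpha chains, Itgb2 pairs with the leukocyte alpha chains and Itgb7 with Itga4 or Itgae. In the fetal liver, red cell precursors mature in contact with a central macrophage and with fibronectin, and the pairs of Itga4 and Itga5 with Itgb1 are known for these contacts. Itga4 with Itgb1 binds VCAM1 and fibronectin, and Itga5 with Itgb1 binds fibronectin.

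Levels were in FPKM, which divides the fragments of a gene by its exon length and by the total of the library. The depth was of about 14800000 to 16200000 fragments per library, read from the steps of low values. Gata1, the targeted gene, had 67.7 ± 0.486 FPKM in KO, against 150.1 ± 13.6 FPKM in WT (SD, n = 3 each; limma, adjusted p = 0.000638). Exon length counts the 3′ UTR, which KO embryos lack, so the missing stretch by itself lowers the KO value. How much of the difference this makes was not tested. Embryonic hepatocyte is the labelled cell type, with no sort named, but red cell transcripts were far above liver cell transcripts: the globin Hbb-bs averaged 36978 FPKM in KO and 51112 in WT, and albumin (Alb) 466 FPKM in KO and 489 in WT. WT replicate 3 stood apart, with the lowest summed level in 8 of the 13 gene lists used beside the integrins, so results that rest on it are given also without it. Among 11142 tested genes 661 were higher and 403 lower in KO (limma on the log2 of FPKM plus 1, with an adjusted p under 0.05). The split moved with the scaling of the libraries, to 219 higher and 450 lower with median-of-ratios factors and to 777 higher and 134 lower with TPM scaling. Over all tested genes the median log2 fold change was 0.09 with the deposited values, -0.01 after median-of-ratios scaling and 0.20 after TPM scaling. In a bulk sample, fewer cells of a type and less RNA per cell cannot be told apart. Whether each library is a separate embryo is not stated by the labels, so the p-values reflect the spread between these 6 libraries, which may be technical.

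Of the 10 chains, 1 fell in KO, Itga4, and none rose (limma, adjusted p under 0.05). Among all tested genes 3.62% were called lower and 5.93% higher, shares that also stand beside the counts of every list below. Itga2 and Itgav had a mean FPKM under 1 and were not tested, and the other 7 did not pass. At an unadjusted p under 0.05 the counts were 1 lower and 2 higher (Itga6 and Itgb1), and voom on the recovered fragments gave 1 lower and 0 higher. Over all 11124 genes in the voom fit 463 were lower and 860 higher. No share over all tested genes is given for unadjusted counts, here or for the lists below. In a fit with no filter on low values 8 of the 10 log2 fold changes were positive, beside 16909 of all 26014 genes, and the median was 0.06, beside 0.03 over all of them.

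Per length of exon, Itgb1 was the most abundant of the 10 chains, with a mean of 62.5 FPKM over the 6 libraries and a range of 51.3 to 74.5. Itga4 followed at 20.0 FPKM and Itgb2 at 18.4, with overlapping ranges and Itga4 the higher of the pair in 3 of 6 libraries. The order of their means turned with the group: the mean of Itga4 was below that of Itgb2 in KO (16.8 and 18.6 FPKM) and above it in WT (23.2 and 18.2 FPKM). Single libraries did not all follow, since KO replicate 3 and WT replicate 1 had the other order. Itgal, at 10.5 FPKM, lay apart from its neighbours in the order. Itga5 (6.77 FPKM), Itgb7 (6.55 FPKM) and Itga6 (5.86 FPKM) overlapped. Itga9 averaged 1.44 FPKM, Itgav 0.726 and Itga2 0.624, and the ranges of these 3 overlapped too.

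**Figure D1:**
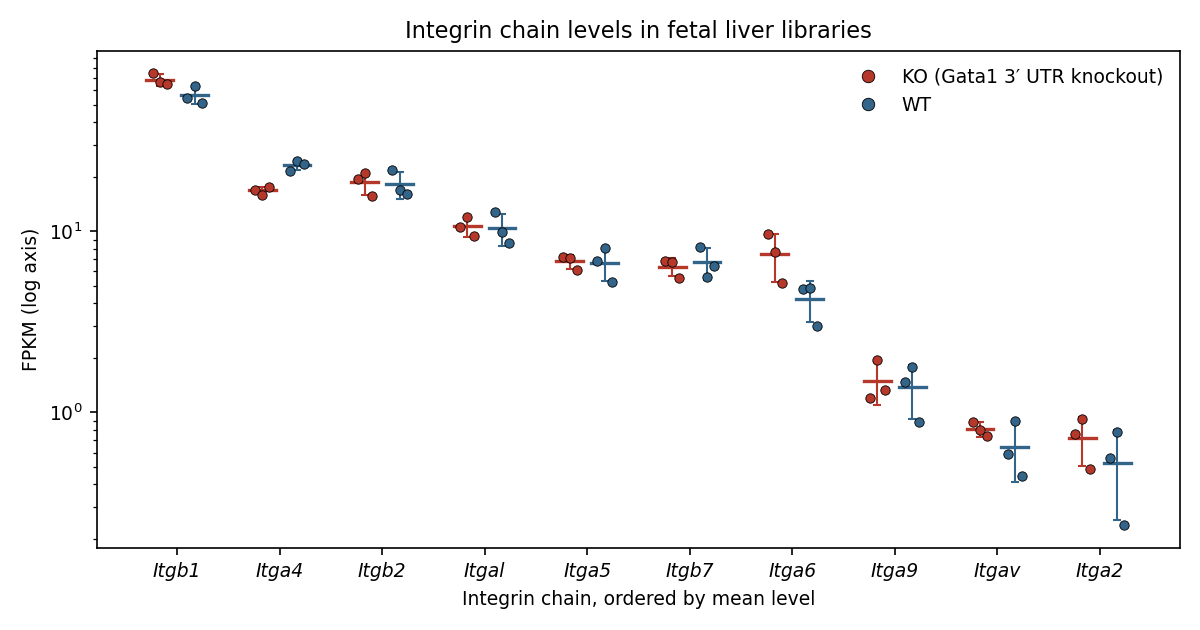
FPKM of each integrin chain (log axis) in KO and WT libraries, with chains ordered by mean level. Points are libraries, horizontal bars the mean and vertical bars the SD (n = 3 each). Itgb1 lay highest at 51.3 to 74.5 FPKM, and the KO and WT points of Itga4 were apart.

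Itga4, the alpha 4 chain of the receptor for VCAM1 and fibronectin, was the only member that passed the test. It had 16.9, 15.9 and 17.6 FPKM in the KO libraries, against 21.6, 24.4 and 23.7 FPKM in the WT libraries. Each KO library was lower than each WT library, as for 8.80% of tested genes. The mean was 16.8 ± 0.848 FPKM in KO and 23.2 ± 1.46 FPKM in WT (SD, n = 3 each), so KO stood at 72.3% of WT. This was a log2 fold change of -0.44 ± 0.066 (standard error; limma, adjusted p = 0.0135), or -0.54 relative to the median of all tested genes. The value rested on 3496 to 3845 fragments per KO library and 4477 to 5534 per WT library. The call was lost without KO replicate 1 (adjusted p = 0.0648), without KO replicate 2 (adjusted p = 0.0686) and after scaling to TPM or to non-globin FPKM (adjusted p = 0.116 and 0.142), within a range of 0.00578 to 0.142 over the alternatives. It was kept without WT replicate 3 (adjusted p = 0.0453).

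The Itga4 gene, ENSMUSG00000027009, lies on the plus strand of chromosome 2 from 79255426 to 79333123 (GRCm38). Of its 13978 merged exon bases, 1124 are shared with Cerkl on the other strand. Whether fragments were counted by strand was not stated. Cerkl itself had 0.0351 to 0.0363 FPKM in KO and 0.0475 to 0.128 FPKM in WT, far below Itga4.

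Red cell markers, like Itga4, were lower in KO. Within WT the order of their summed FPKM was the reverse of that of Itga4, highest in WT replicate 1 and lowest in WT replicate 2. Globins made up most of that sum, with WT means of 51112 FPKM for Hbb-bs and 40876 for Hba-a1. The order is therefore mainly that of globins and not of each marker. Of 11 tested erythroid markers 6 fell and 5 did not pass, with a median log2 fold change of -0.31, and their summed level was 90704 to 99823 FPKM in KO libraries and 114197 to 130538 FPKM in WT libraries. The count of 6 became 0 with TPM or non-globin scaling and ran from 1 to 5 with a library left out, lowest without KO replicate 1 or KO replicate 2. It was 2 without WT replicate 1 or WT replicate 3, 3 without KO replicate 3 and 1 with no filter. None of the markers was listed at 0, and their part in the lower Itga4 level was not tested. The 3 tested genes nearest to Itga4 in profile over the 6 libraries were Pi4k2b, a lipid kinase gene, Tfrc, the transferrin receptor gene of iron uptake, and C330018D20Rik. Their root mean square differences from Itga4 were 0.0178, 0.0216 and 0.0266 on the log2 scale, beside a median of 0.297 over all tested genes. The 3 were picked as the nearest in these same libraries, so values far below the median follow from the choice and add no support. Tfrc averaged 267 FPKM in KO and 368 FPKM in WT.

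Itgb1, the beta 1 chain, had 74.5, 66.5 and 64.9 FPKM in the KO libraries, against 54.6, 63.4 and 51.3 FPKM in the WT libraries. Every KO library lay above every WT library, the nearest being KO replicate 3 and WT replicate 2, and 26.8% of tested genes showed this. The log2 fold change of 0.28 (standard error 0.092, 95% interval 0.06 to 0.50) did not pass (limma, adjusted p = 0.101). It passed without WT replicate 2 (adjusted p = 0.0416), and its adjusted p ran up to 0.286 over the alternatives. Without WT replicate 3, the lowest library, the log2 fold change was 0.22 (limma, adjusted p = 0.234). The gene lies on chromosome 8 from 128685654 to 128733200, on the plus strand.

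Itga5, the alpha 5 chain of the fibronectin receptor, had 7.19, 7.16 and 6.10 FPKM in the KO libraries, against 6.85, 8.05 and 5.27 FPKM in the WT libraries. The groups overlapped, and both the highest and the lowest library were WT. Its log2 fold change was 0.03 with a 95% interval of -0.30 to 0.36 (limma, adjusted p = 0.90), so changes of up to 0.30 either way lie within its error. The gene lies on chromosome 15 from 103344286 to 103366763, on the minus strand.

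Itga6, the alpha 6 chain of laminin receptors, had the widest range of the chains with a mean above 1 FPKM, the highest library standing at 3.22 times the lowest. It had 9.61, 7.70 and 5.18 FPKM in the KO libraries, against 4.82, 4.88 and 2.98 FPKM in the WT libraries. Each KO library was above each WT library, as for 26.8% of tested genes. The lowest KO library was close to the WT libraries, and KO stood at 177% of WT on average. The log2 fold change of 0.69 (standard error 0.23, 95% interval 0.14 to 1.24) did not pass (limma, adjusted p = 0.107), and without WT replicate 3 it was 0.50 (adjusted p = 0.242). Over 16 alternatives its adjusted p ran from 0.0155 to 0.283, and 1 of them passed. The gene lies on chromosome 2 from 71745616 to 71858416, on the plus strand.

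The libraries fell in the same order for Itga6 as for Itgb1, Itgb3 and the summed megakaryocyte and platelet markers, with KO replicate 1 highest and WT replicate 3 lowest. Itga2b, the partner of Itgb3, differed in that WT replicate 1 stood above WT replicate 2. The share of all tested genes with this order is not given, while 26.8% had every KO library above every WT library. Of 14 tested markers of that kind 8 rose and 6 did not pass, with a median log2 fold change of 1.14. The count of 8 became 0 without KO replicate 1, KO replicate 2 or WT replicate 3 and with no filter, and 2 without WT replicate 1. Their summed level was 685 to 1069 FPKM in KO libraries and 435 to 651 FPKM in WT libraries, with none listed at 0. Pf4, the platelet factor 4 gene, had 331, 261 and 182 FPKM in the KO libraries, against 120, 161 and 72.4 FPKM in the WT libraries. Of 9 tested endothelial markers 0 passed by limma, while 2 were higher at an unadjusted p under 0.05 and 1 by voom. Their summed level was 27.4 to 41.1 FPKM in KO libraries and 16.3 to 38.8 FPKM in WT libraries, lowest in WT replicate 3. Of 5 tested stem and progenitor cell markers 0 passed by limma or voom, and 2 were higher at an unadjusted p under 0.05. They summed to 32.4 to 36.1 FPKM in KO libraries and 22.8 to 34.1 FPKM in WT libraries. The part of these cells in the Itga6 and Itgb1 values was not tested.

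Of the low alpha chains, Itga9, a receptor chain for tenascin and VCAM1, had 1.20, 1.95 and 1.33 FPKM in the KO libraries, against 1.47, 1.78 and 0.880 FPKM in the WT libraries. The groups overlapped, and the log2 fold change of 0.08 had a 95% interval of -0.35 to 0.51 (limma, adjusted p = 0.805). Itgav, the alpha v chain of vitronectin receptors, had 0.887, 0.799 and 0.738 FPKM in KO, against 0.590, 0.895 and 0.444 FPKM in WT. Itga2, the alpha 2 chain of the collagen receptor of platelets and other cells, had 0.764, 0.921 and 0.486 FPKM in KO, against 0.560, 0.776 and 0.238 FPKM in WT. Both overlapped between the groups and rested on few fragments, 54 to 103 per KO library and 27 to 90 per WT library for Itga2. A fit without the filter gave log2 fold changes of 0.15 for Itgav (95% interval -0.15 to 0.44) and 0.18 for Itga2 (95% interval -0.22 to 0.59), on a scale that understates the change of low genes.

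Itgb2 and Itgal encode the chains of LFA-1, the leukocyte receptor for ICAM ligands. Itgb2 had 19.3, 21.0 and 15.6 FPKM in the KO libraries, against 21.8, 16.8 and 16.0 FPKM in the WT libraries. Itgal had 10.6, 12.1 and 9.38 FPKM in the KO libraries, against 12.7, 9.89 and 8.61 FPKM in the WT libraries. Both overlapped between the groups, and the highest library was WT replicate 1 for both. The log2 fold changes were 0.03 for Itgb2 (95% interval -0.31 to 0.37; limma, adjusted p = 0.895) and 0.04 for Itgal (95% interval -0.30 to 0.39; limma, adjusted p = 0.872). Itgal lies on chromosome 7 from 127296260 to 127335138 and Itgb2 on chromosome 10 from 77530252 to 77565708, both on the plus strand.

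White cell markers are given beside these chains. Of 11 tested macrophage markers and 11 neutrophil and granulocyte precursor markers 0 passed, also at an unadjusted p under 0.05 and by voom. Their summed levels overlapped between the groups, at 91.2 to 162 FPKM in KO and 95.5 to 184 FPKM in WT for macrophages. For neutrophils they were 1697 to 2267 FPKM in KO and 1389 to 1964 FPKM in WT. Of 4 tested lymphoid markers 0 passed, by limma, at an unadjusted p under 0.05 or by voom, and 5 more were under 1 FPKM.

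Itgb7, which pairs with Itga4 in the gut-homing receptor of lymphocytes, had 6.84, 6.75 and 5.53 FPKM in the KO libraries, against 8.21, 5.58 and 6.40 FPKM in the WT libraries. WT replicate 1 was highest and KO replicate 3 lowest, and the groups overlapped. The log2 fold change was -0.06 with a 95% interval of -0.39 to 0.27 (limma, adjusted p = 0.799). Mast cell precursors, which carry Itgb7, belong to a group of which 8 markers were tested. Of these 1 fell, Mcpt8, a basophil protease gene (adjusted p = 0.0135, and 0.0616 without KO replicate 1; limma), 7 did not pass and 0 rose. At an unadjusted p under 0.05, and also by voom, the counts were 1 lower and 1 higher. TPM and non-globin scaling likewise gave 1 lower and 1 higher by limma. The list summed to 208.7 to 306 FPKM in KO libraries and 262 to 401 FPKM in WT libraries.

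Promoter windows were searched for the GATA motif, since GATA1 is the factor whose gene was altered. RefSeq windows of 300 bases, from 250 before to 50 after the start (GRCm38.p6), were at hand for 7 of the 10 genes, namely Itga2, Itga4, Itga5, Itga9, Itgav, Itgb1 and Itgb7. The motif searched was GATA with A or T before it and A or G after it, on both strands. The Itga9 window is set on a RefSeq start 105002 bases inside the gene as the deposited table places it, so the start of Itga9 given there was not searched. The starts of Itga2 and Itga5 lie just outside the deposited genes, and those of the other 4 are the same base. Only Itgb7 among the 7 held a match, while 29.8% of 32851 such windows did. The match is shown with its surroundings because it is the single one, with the motif, here on the reverse strand, in capitals. It begins 64 bases before the start, in chr15:102231982-102232011, minus strand.
Itgb7 promoter: cccagcccactcCTATCTgctccaccttct
A match in letters is a description of the sequence and not a binding site, and these windows leave out distant enhancers.

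**Figure D2:**
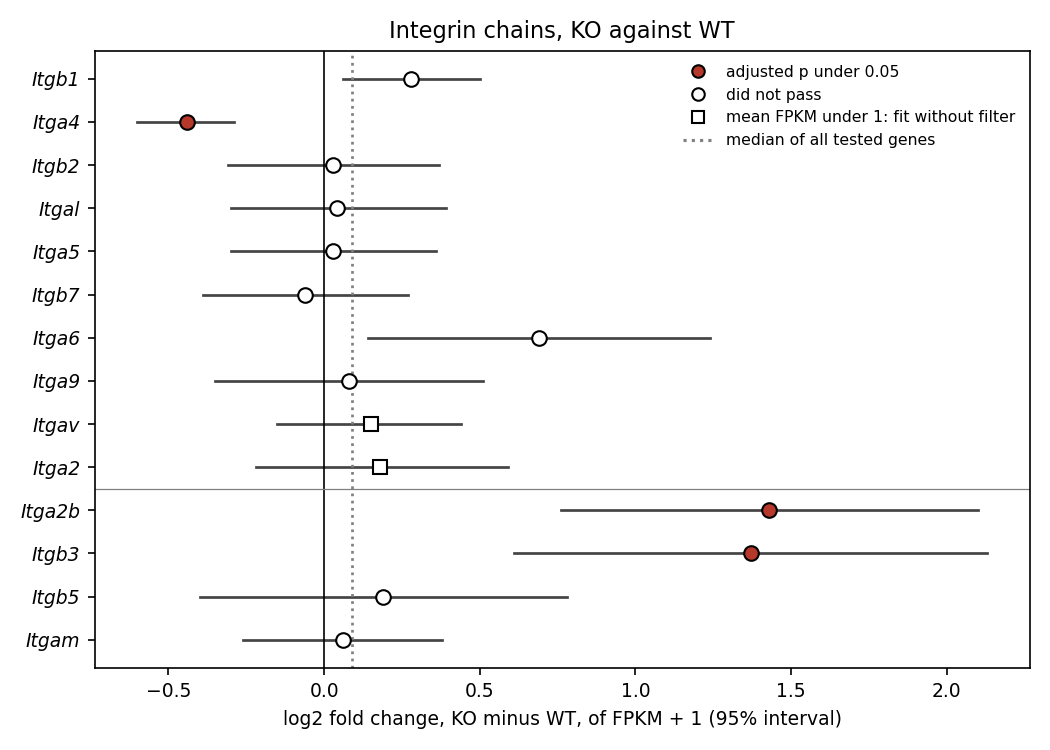
Log2 fold change, KO minus WT, of FPKM + 1 with its 95% interval, for the 10 chains (above the line) and the other chains with a mean of at least 1 FPKM (below it). Filled circles passed the test, open circles did not, squares come from the fit without a filter, and the dotted line is the median of all tested genes. Itga4 lay at -0.44, Itga2b at 1.43 and Itgb3 at 1.37.

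Setting an alpha chain against its beta partner within a library removes the scaling of that library. The ratio of Itga4 to Itgb1 was 0.227, 0.239 and 0.271 in the KO libraries, against 0.396, 0.385 and 0.461 in the WT libraries. The groups did not overlap, and the mean ratio was 0.246 ± 0.0230 in KO and 0.414 ± 0.0409 in WT (SD, n = 3 each), a difference of -0.75 on the log2 scale. That the groups did not overlap follows from the 2 genes taken singly. Every KO library was below every WT library for Itga4 and above every WT library for Itgb1. The ratio therefore adds no support to those results. The ratios are given as a description and were not tested. A ratio shows unequal change of its 2 genes and not which of them moved.

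Among the 6 alpha chains of the list that can pair with Itgb1, Itga4 made up 46.2%, 46.2% and 56.0% of their summed FPKM in the KO libraries, against 60.2%, 59.8% and 70.7% in the WT libraries. Other partner ratios overlapped between the groups. That of Itga6 to Itgb1 was 0.108 ± 0.0254 in KO and 0.0744 ± 0.0153 in WT, and that of Itga5 to Itgb1 was 0.0994 ± 0.00720 in KO and 0.118 ± 0.0137 in WT (SD, n = 3 each). The LFA-1 chains kept close to each other in every library: the ratio of Itgal to Itgb2 was 0.545, 0.575 and 0.600 in the KO libraries, against 0.584, 0.588 and 0.537 in the WT libraries. Itga4 over Itgb7 was 2.67 ± 0.448 in KO and 3.57 ± 0.881 in WT.

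**Figure D3:**
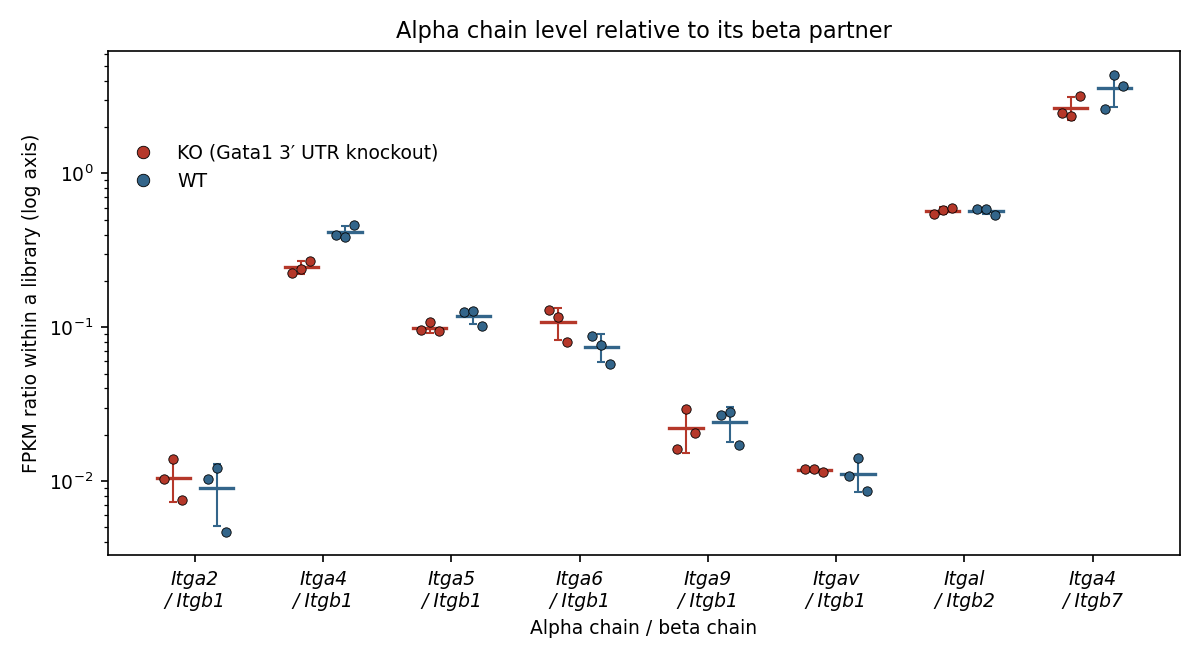
Ratio of alpha chain FPKM to beta chain FPKM within each library (log axis), KO beside WT for 8 pairs. Points are libraries, horizontal bars the mean and vertical bars the SD (n = 3 each). The KO points of Itga4 over Itgb1 (0.227 to 0.271) lay below the WT points (0.385 to 0.461), and the other pairs overlapped.

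Library by library, 7 of the 10 chains were lowest in WT replicate 3, and the exceptions were Itga4, Itgb2 and Itgb7. That library was also lowest in the summed hepatoblast and hepatocyte markers, which were at 1076 to 1479 FPKM in KO libraries and at 419.7 FPKM in WT replicate 3. The same held for stellate and mesenchymal markers, at 10.7 to 21.1 FPKM in KO libraries and 4.16 FPKM in WT replicate 3. Of 13 tested hepatoblast and hepatocyte markers 0 passed by limma, at an unadjusted p under 0.05 or by voom, and WT libraries ranged widely, up to 2444 FPKM. Of 4 tested stellate and mesenchymal markers 1 rose, Reln, which encodes an extracellular glycoprotein (limma, adjusted p = 0.00934, and 0.0519 without KO replicate 2), and 6 more were under 1 FPKM. None of these markers was listed at 0 in all libraries, and their part in the integrin values was not tested. Without WT replicate 3 the count was still 1 chain lower, Itga4, and 0 higher by limma.

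**Figure D4:**
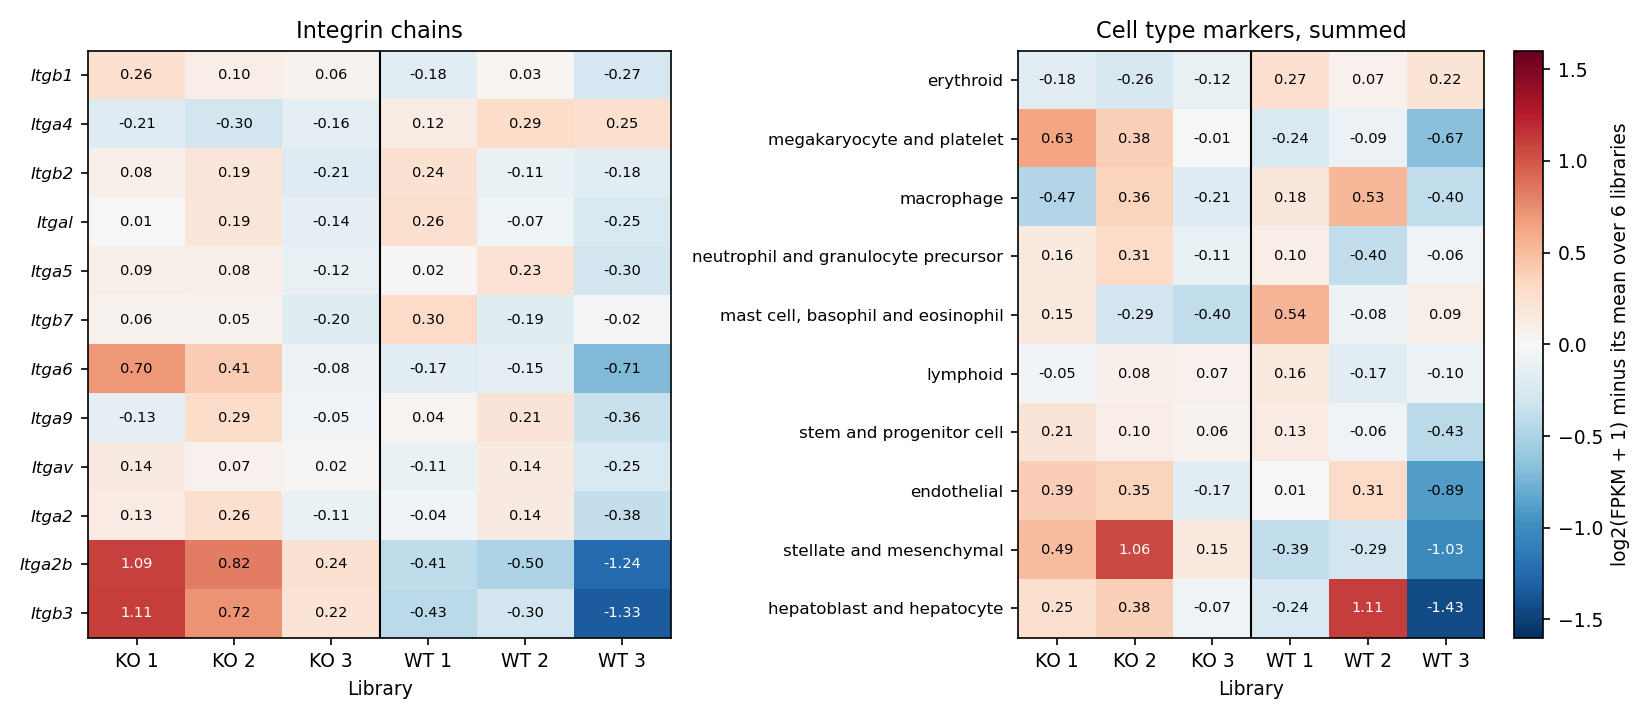
Level in each library as log2(FPKM + 1) minus its mean over the 6 libraries, for integrin chains (left) and for the summed FPKM of cell type marker lists (right), KO libraries left of WT libraries. WT replicate 3 was at -0.71 for Itga6, -0.67 for megakaryocyte and -1.43 for hepatoblast markers, while Itga4 was at -0.30 to -0.16 in KO and 0.12 to 0.29 in WT.

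Of 15 other integrin chains 4 were tested, and 2 rose, Itga2b and Itgb3, which form the fibrinogen receptor of platelets. Itga2b had 106.6, 88.8 and 58.8 FPKM in the KO libraries, against 37.1, 35.0 and 20.5 FPKM in the WT libraries, and its log2 fold change was 1.43 (limma, adjusted p = 0.0291). Itgb3 had 100.8, 76.7 and 53.8 FPKM in the KO libraries, against 34.0, 37.2 and 17.7 FPKM in the WT libraries, and its log2 fold change was 1.37 (limma, adjusted p = 0.0451). In KO the mean of Itgb1 (68.6 ± 5.14 FPKM) was below that of Itga2b (84.7 ± 24.2 FPKM), though not in KO replicate 3, and in WT it was above (56.4 ± 6.24 FPKM for Itgb1, 30.9 ± 9.05 for Itga2b; SD, n = 3 each). Both platelet calls were lost without KO replicate 1, KO replicate 2 or WT replicate 3 (adjusted p = 0.0999, 0.111 and 0.0595 for Itga2b and 0.140, 0.145 and 0.0788 for Itgb3). With no filter on low values adjusted p was 0.0830 for Itga2b and 0.118 for Itgb3. The Itgb3 call was also lost without WT replicate 1 (adjusted p = 0.0735), after median-of-ratios scaling (adjusted p = 0.0504) and with a robust prior (adjusted p = 0.0665). Itgb5 (5.39 ± 0.889 FPKM in KO and 4.79 ± 1.88 in WT) and the myeloid chain Itgam (1.53 ± 0.265 in KO and 1.43 ± 0.328 in WT) did not pass (SD, n = 3 each). The other 11 chains had a mean under 1 FPKM.

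Of 27 ligand genes of integrins in the table, 12 had a mean under 1 FPKM and 15 were tested. Of these 1 rose, 14 did not pass and 0 fell by limma (adjusted p under 0.05), with a median log2 fold change of 0.30 beside 0.09 over all tested genes. Over all tested genes 5.93% were called higher. At an unadjusted p under 0.05 the ligands had 5 higher and 0 lower, and by voom 1 higher and 0 lower. The gene that rose was Tgfb1, whose latent form is bound by alpha v integrins, with 34.6 ± 3.15 FPKM in KO and 25.7 ± 2.82 in WT (SD, n = 3 each), or 0.42 on the log2 scale (limma, adjusted p = 0.0453). Its call was kept only without WT replicate 1 among the 6 fits that left out a library (adjusted p = 0.154, 0.157 and 0.0519 without KO replicates 1, 2 and 3, and 0.0772 and 0.112 without WT replicates 2 and 3). Median-of-ratios scaling gave adjusted p = 0.112 and a fit with no filter 0.1075.

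Ligands of Itga4 and Itga5 are named here for their role. Vcam1 had 1.96, 2.17 and 2.04 FPKM in the KO libraries, against 2.23, 3.90 and 1.39 FPKM in the WT libraries. The fibronectin gene Fn1 had 7.87, 8.21 and 6.37 FPKM in the KO libraries, against 6.07, 13.4 and 2.51 FPKM in the WT libraries. For both genes the WT libraries spread more widely than the KO libraries and enclosed them, and neither passed (limma, adjusted p = 0.743 for Vcam1 and 0.748 for Fn1). Of the ICAM ligands of LFA-1, Icam2 stood at 6.28 ± 0.770 FPKM in KO and 6.87 ± 1.86 in WT, and Icam1 at 1.53 ± 0.0839 in KO and 1.52 ± 0.556 in WT (SD, n = 3 each).

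Genes of integrin activation and the adhesion plaque, which link the beta chain tails to actin and to kinases, were tested for 28 of 34 listed. Of these 4 rose, 24 did not pass and 0 fell by limma (adjusted p under 0.05). Over all tested genes 5.93% were called higher and 3.62% lower. At an unadjusted p under 0.05 the list had 14 higher and 0 lower, and by voom 6 higher and 0 lower. The share of all tested genes at that unadjusted level is not given, so the count of 14 has no background beside it. Log2 fold changes were positive for 27 of 28, beside 7952 of all 11142 tested genes, and the median was 0.33, beside 0.09 over all tested genes. Ptk2, the focal adhesion kinase, had 16.9, 16.8 and 16.1 FPKM in the KO libraries, against 11.6, 12.7 and 11.4 FPKM in the WT libraries, or 0.45 on the log2 scale (limma, adjusted p = 0.00929). Its relative Ptk2b had 10.7 ± 0.277 FPKM in KO and 7.23 ± 0.934 in WT (limma, adjusted p = 0.0199). Tln1, the talin that activates integrins by binding the beta tail, had 119, 115 and 102 FPKM in the KO libraries, against 90.6, 82.2 and 84.6 FPKM in the WT libraries (limma, adjusted p = 0.0270). Vcl, the vinculin gene, stood at 22.9 ± 3.56 FPKM in KO and 14.2 ± 1.62 in WT, or 0.65 on the log2 scale (limma, adjusted p = 0.0273).

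For these 4 genes each KO library was above each WT library, as for 26.8% of tested genes. The 4 were named because they passed in these same libraries, so this adds no support. The count of 4 became 0 without KO replicate 1 or KO replicate 2 and 1 without WT replicate 3. It was 2 with median-of-ratios scaling, 8 with TPM scaling and 1 with no filter. Without KO replicate 1 adjusted p was 0.0526 for Ptk2, 0.0815 for Ptk2b, 0.104 for Tln1 and 0.0806 for Vcl. Without KO replicate 2 it was 0.0570 for Ptk2, 0.0928 for Ptk2b, 0.115 for Tln1 and 0.102 for Vcl. Without WT replicate 3 it was 0.0631 for Ptk2b, 0.0776 for Tln1 and 0.0710 for Vcl. Single calls were also lost without KO replicate 3 (Ptk2b, adjusted p = 0.0548), WT replicate 1 (Vcl, adjusted p = 0.0533) and WT replicate 2 (Tln1, adjusted p = 0.0511), and with non-globin scaling (adjusted p = 0.0538 for Ptk2 and 0.0784 for Tln1). Fermt3, the kindlin of blood cells, averaged 131 ± 16.1 FPKM in KO and 115 ± 6.51 in WT and did not pass (limma, adjusted p = 0.263). Rap1b, in this list, also stands among the megakaryocyte and platelet markers, whose summed level was higher in every KO library than in every WT library, and the part of those cells was not tested.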

How the data were processed

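FPKM per gene were deposited by the authors as 1 table for 6 libraries of total RNA (TRIzol, read as pairs of 150 bases according to the labels). The aligner, the counter, the build and the handling of strand were not stated. Of 26022 lines below the header, 7 held stray annotation text and 1 was empty, so 26014 genes were used, and 24 names that had become dates were restored. GENCODE M21 (GRCm38) holds 25935 of the identifiers, 23607 of them at identical positions. Coordinates are therefore labelled GRCm38, while Itga2 and Itgb7 differ slightly from that annotation. Using its merged exons, 93.0% to 93.4% of values under 50 fragments were whole numbers within 0.02 in each library. At this depth 3 fragments on 1 kb of exon equal 0.185 to 0.202 FPKM, counting error alone considered.

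Differences were tested with limma 3.58.1 (R 4.3.3; lmFit and eBayes with a mean trend, two-sided) on log2(FPKM + 1) for 11142 genes whose mean FPKM was 1 or more. Benjamini-Hochberg adjustment ran over all of these, with calls at 0.05. On this scale changes of low genes appear smaller than they are. The 95% intervals come from the same fit (2.86 prior and 4 residual degrees of freedom). The code was tested on simulated fragments. TPM and non-globin scaling divided a library by its summed FPKM, with and without globins, and multiplied by the mean sum. Members and gene lists were chosen with earlier results of these data known. The text names all members, Gata1, the other tested integrin chains, the passing genes of pathway lists and the 3 profiles nearest to a passing member. Markers were named only in part: Hbb-bs, Hba-a1, Alb, Pf4 and Reln from the most abundant of their lists, Mcpt8 because it passed, and Rap1b. The other markers, some of which passed, were counted and summed without being named. Fn1, Vcam1, Icam1, Icam2 and Fermt3 were added later for their role. Tables and figures were made in Python 3.11.15 (pandas 2.3.3, numpy 2.4.6, matplotlib 3.10.9).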

Additional observations from a re-analysis of the deposited data

How the results depend on the processing

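The lower call of Itga4 held in 12 of 16 alternatives, with log2 fold changes of -0.56 to -0.33. The count of lower chains was 0 with TPM and non-globin scaling and 0 to 1 with a library left out. That of higher chains was 0 by limma in the main analysis, 1 with the replicate block (Itga6, adjusted p = 0.0155) and 0 to 1 with a library left out. Replicate numbers were not taken as pairs, since deviations of same-numbered libraries correlated at -0.0974, 0.0116 and 0.256. Over all tested genes the counts were 267 higher and 246 lower with no filter and 330 higher and 135 lower with non-globin scaling. There were 219 higher with median-of-ratios scaling and 134 lower with TPM scaling. With a library left out they ran from 62 to 736 higher and from 111 to 395 lower, lowest without KO replicate 2. Such fits have fewer samples. Signs of chains near 0 turned: with median-of-ratios scaling Itga5 and Itgal stood at -0.07 and Itgb2 at -0.08, and with TPM scaling Itgb7 at 0.05. With a library left out Itga5 ran from -0.11 to 0.15, Itga9 from -0.08 to 0.20, Itgal from -0.08 to 0.18, Itgb2 from -0.05 to 0.16 and Itgb7 from -0.17 to 0.07. Low fragment numbers limit what can be read of Itga2 and Itgav.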
